A study of Homo sapiens with 36 samples.

Results

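The effect of Di on HK-2 cells at 48 h was set against the effect of the high dose of Kbr at the same time, to ask which genes the compounds moved in opposite directions and which they moved alike. HK-2 is an immortalised human cell line from the proximal tubule of the kidney, and the study exposed it at near confluency to compounds that its labels call CdCl, Di and Kbr without spelling them out. The series groups these 3 compounds as one class of nephrotoxic agents, called Tox 2, by clustering of expression changes. The comparison used 12 of the 36 arrays, in 4 groups of 3 biological replicates. These were cells given Di (labelled Di-t48h), the vehicle cells of that set (CdCl_and_Di-t48h_ctrl), cells given high-dose Kbr (Kbr-hd-t48h), and the vehicle cells of the Kbr set (Kbr-hd_and_ld-t48h_ctrl). The labels give no dose for Di and only the words high and low for Kbr, so the compounds are compared at one time and not at a matched dose. Each set had its own controls, and no array was shared between the effects compared.

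All levels below are log2 expression values, so a difference of 1 is a change by a factor of 2. The Di effect is the mean of the Di arrays minus the mean of their controls, the high Kbr effect is the same within its set, and the difference of effects is the Di effect minus the high Kbr effect. A change is called where the moderated test of limma passed an adjusted p of 0.05 over all 11092 genes measured. A gene is called opposed where both effects passed with opposite signs, and shared where both passed with the same sign. Values under 4 are close to background, so where a group averaged below that level the fold change is given as a lower bound.

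Some background helps to read the genes. NRF2 is a transcription factor that cells stabilise when their thiols are attacked by reactive chemicals, and it switches on genes for glutathione synthesis, quinone reduction, heme breakdown and the export of conjugates. Dividing cells copy DNA with genes driven mainly by E2F factors and then switch on a later set for mitosis, much of it through promoter elements called CHR and CCAAT boxes. Proximal tubule cells carry transporters and junction proteins for reabsorption, and cultured or injured tubule cells tend to lose them.

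Replicates lay close together. The correlation between arrays of one group ran from 0.982 to 0.994, against 0.896 to 0.959 between groups. The epithelial genes KRT8, KRT18 and EPCAM averaged above 10 in all 4 groups, and so did CLDN2 in the Kbr control and SLC4A4 in both controls. Of 31 proximal tubule markers listed, however, 10 rose above background on enough arrays to be measured, and LRP2, CUBN, SLC34A1, AQP1 and SLC22A6 were not among them. Of 18 fibroblast, endothelial and leukocyte markers 3 were measured, the matrix genes COL1A1, DCN and LUM. The sets differed in a measure of RNA quality, the excess of the 3' over the 5' signal for beta-actin. It averaged 1.60 ± 0.11 on the log2 scale on the Di arrays and 1.5 ± 0.12 on their controls, and 1.06 ± 0.23 on the high Kbr arrays and 0.898 ± 0.18 on theirs (SD, n = 3 each). The same measure for GAPDH did not part the sets. It averaged -0.078 on the Di arrays and -0.049 on their controls, and -0.084 on the high Kbr arrays and -0.079 on theirs. The part of the beta-actin excess in the results was not tested.

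Di changed 4773 genes, 43% of those measured, with 2122 higher (19.1%) and 2651 lower (23.9%). High Kbr changed 6855 genes (61.8%), with 3031 higher (27.3%) and 3824 lower (34.5%). The effects themselves differed for 4830 genes (43.5%), of which 2623 (23.6%) had the higher effect with Di and 2207 (19.9%) the lower. Both effects passed for 3402 genes (30.7%), and 80.9% of these had the same sign. The shared genes numbered 2751 (24.8% of all), which is 57.6% of the Di list and 40.1% of the Kbr list, with 1066 up with both (9.61%) and 1685 down with both (15.2%). The opposed genes numbered 651 (5.87%), with 328 up with Di and down with high Kbr (2.96%) and 323 down with Di and up with high Kbr (2.91%). When each array was centred on its median, the shared genes split into 1404 up and 1394 down. The levels of the Di and high Kbr arrays themselves differed for 7217 genes (65.1%).

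Most opposed changes were modest. Among the 328 genes up with Di and down with Kbr the median effects were 0.60 with Di and -0.69 with high Kbr, and among the 323 of the other kind they were -0.63 and 0.65. Changes of at least 2-fold in both sets were met by 23 and 14 genes. Treated and control arrays did not overlap in either set for 560 of the 651, and for 4317 genes (38.9%) of the whole table. This is no further support, since the 651 were chosen by tests on the same arrays. By kind the share was 86% for genes up with Di and 86.1% for genes down with Di. Among shared genes it was higher, 92.2% of those up and 92.3% of those down. Across all genes the effects correlated with a Pearson r of 0.481 and a Spearman rho of 0.445, a description over genes, which are not independent replicates.

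**Figure D1:**
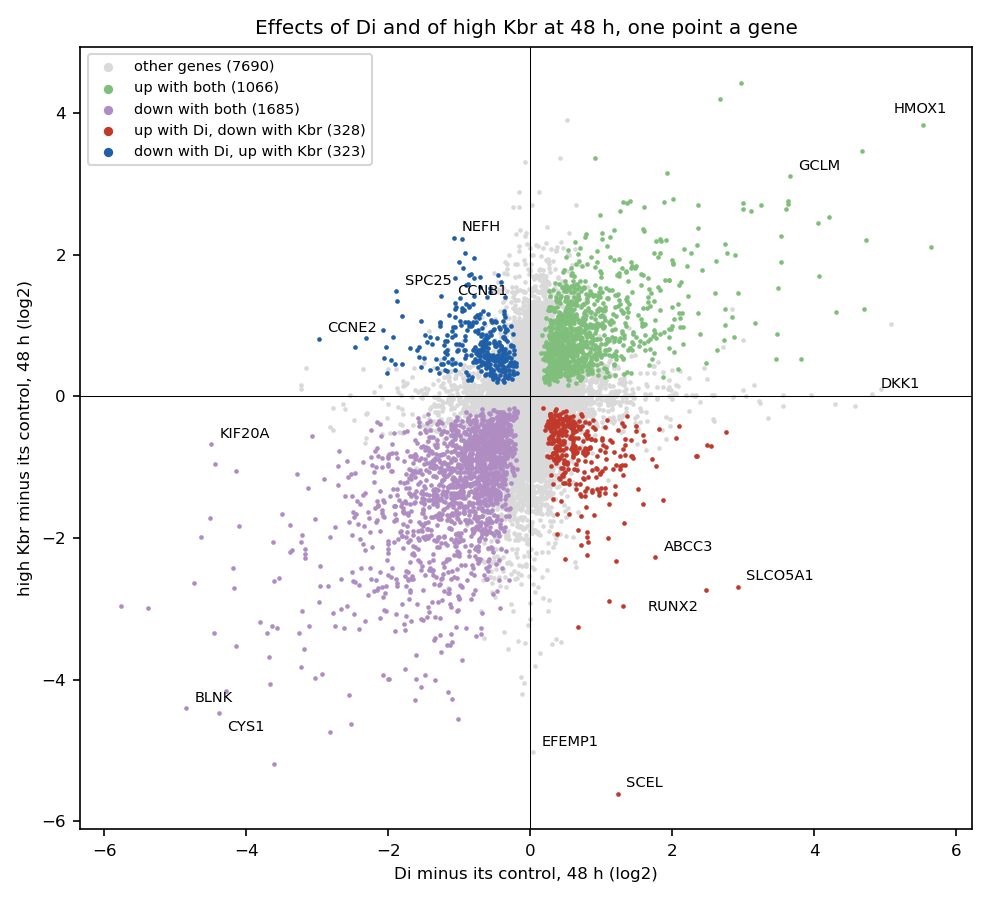
Effect of high Kbr (vertical axis, log2) against the effect of Di (horizontal axis, log2) at 48 h, 1 point for each of 11092 genes, coloured by whether both effects passed the test. Shared genes fill the upper right (1066) and lower left (1685), and opposed genes lie nearer the centre apart from a few such as SCEL, SLCO5A1 and CCNE2.

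The starting levels of the sets also differed. The vehicle controls at 48 h differed for 5659 genes (51%), with 2695 higher in the Di set (24.3%) and 2964 lower (26.7%). Among genes up with Di and down with Kbr the controls differed for 54.6%, near the share of all genes. Among genes down with Di and up with Kbr they differed for 68.7%, with 54 higher and 168 lower in the Di set and a median difference of -0.39. Many effects below were therefore measured from unlike starting levels, and for genes without values by array the difference of the controls, Di set minus Kbr set, is given for the opposed genes. Whether the starting level contributes to the effects was not tested.

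Genes of mitosis parted between the compounds. All 36 listed G2/M and mitosis genes were measured, and 36 of 36 fell with Di (23.9% of all genes fell), while 32 rose with high Kbr (27.3% of all genes rose), 1 fell and 3 did not pass. So 32 of the 36 were opposed, against 2.91% of all genes, and the difference of effects passed for 36 of 36, each lower with Di (19.9% of all genes). The median effects of the list were -1.17 with Di and 0.67 with high Kbr. The median level of the list was 7.38, 7.51 and 7.51 on the Di arrays, against 8.53, 8.62 and 8.57 on their controls. It was 10.91, 11.00 and 11.24 on the high Kbr arrays, against 10.29, 10.29 and 10.56 on theirs. Neither treated group overlapped its control, and the Di-set controls themselves started below the Kbr-set controls, lower for 33 of the 36 genes with a median control difference of -1.62. In RNA from whole cultures, fewer cells in a phase and less RNA for each cell cannot be told apart.

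**Figure D2:**
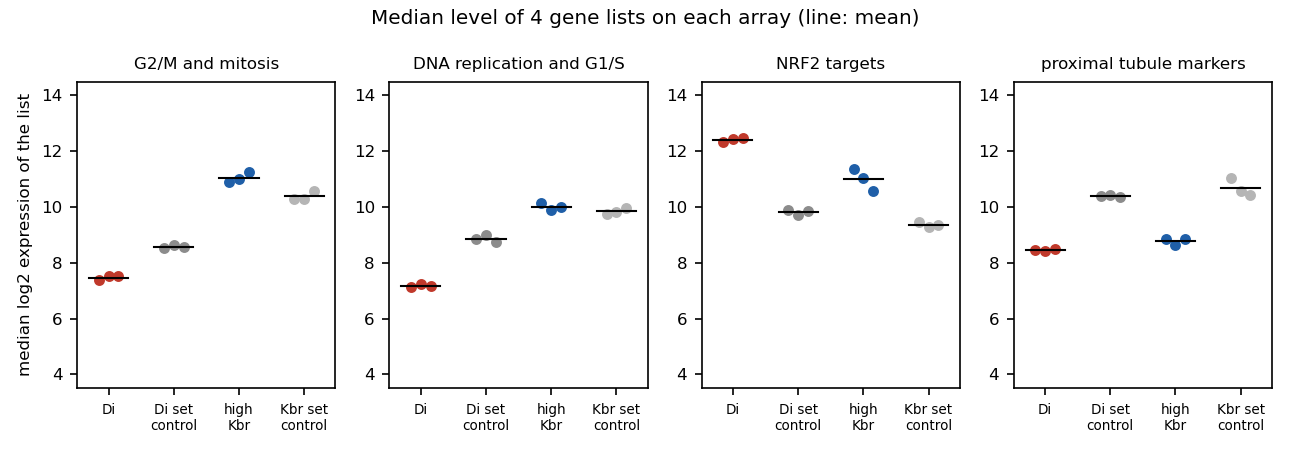
Median log2 expression of 4 gene lists on each array (points) with the group mean (line), for Di, the control of the Di set, high Kbr and the control of the Kbr set. The mitosis list fell below its control with Di (7.38 to 7.51 against 8.53 to 8.62) and stood above it with high Kbr (10.91 to 11.24 against 10.29 to 10.56), while the NRF2 list rose and the proximal tubule list fell in both sets.

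The promoters of the mitotic kinases CDK1 and PLK1 are shown because both genes were opposed and both hold the elements named above. Each runs from 250 bases before to 50 bases after the start of the gene, from RefSeq on GRCh38.p14, 5' to 3' on the strand of the gene. CDK1 lies at chr10:60778081-60778380 on the plus strand and PLK1 at chr16:23678639-23678938 on the plus strand. Capitals mark the CHR (TTTGAA or TTCGAA) and the CCAAT box, searched on both strands.
CDK1: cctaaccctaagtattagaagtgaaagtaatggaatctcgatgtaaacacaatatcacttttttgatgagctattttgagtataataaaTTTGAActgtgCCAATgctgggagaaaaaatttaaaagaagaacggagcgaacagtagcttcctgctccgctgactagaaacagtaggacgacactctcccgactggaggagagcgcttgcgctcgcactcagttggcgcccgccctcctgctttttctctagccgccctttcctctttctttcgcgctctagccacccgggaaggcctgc
PLK1: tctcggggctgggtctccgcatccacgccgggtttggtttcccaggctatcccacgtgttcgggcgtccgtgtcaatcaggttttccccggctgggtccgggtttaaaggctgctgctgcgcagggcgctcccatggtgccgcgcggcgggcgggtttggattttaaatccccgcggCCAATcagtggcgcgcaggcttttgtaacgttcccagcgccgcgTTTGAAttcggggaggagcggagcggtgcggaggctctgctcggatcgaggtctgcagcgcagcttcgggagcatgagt

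A CHR was found in 69.0% of the 29 promoters available for the mitosis list, against 11.1% of the 9183 promoters of measured genes and 16.6% of the 27305 promoters in the table. It was found in 29.2% of the 271 promoters of genes down with Di and up with Kbr, and in 10.4% of the 278 of genes up with Di and down with Kbr. The 271 include promoters of the mitosis list, and among the 246 outside that list a CHR was found in 24.4%. CCAAT was found in 82.8% of the mitosis promoters, in 52.8% of those down with Di and up with Kbr, and in 37.3% of measured genes. It was found in 49.2% of the 246. Matches of CHR and CCAAT overlapped in 6 promoters. These are matches of letters in a short window and not sites shown to be bound.

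CCNB1 encodes cyclin B1, the partner of CDK1 that drives entry into mitosis. It stood at 9.36, 9.49 and 9.34 on the Di arrays, against 10.46, 10.33 and 10.32 on their controls. On the high Kbr arrays it stood at 12.68, 12.81 and 12.96, against 11.31, 11.61 and 11.93 on theirs. No treated array overlapped a control array in either set, and the highest of the 4 groups was high Kbr. The Di effect was -0.97 ± 0.11 and the high Kbr effect 1.20 ± 0.11 (SE), a difference of -2.16 with a 95% interval from -2.49 to -1.84 and an adjusted p of 3.36e-11.

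CDK1, the kinase itself, read 9.43, 9.22 and 9.42 with Di, against 10.30, 10.65 and 10.30 in the controls of that set. High Kbr arrays read 12.67, 12.66 and 12.85, against 11.60, 11.76 and 11.90. Again neither treated group overlapped its own control. Its effects were -1.06 with Di and 0.97 with high Kbr, and they differed by -2.03 ± 0.22 (adjusted p = 3.50e-08). PLK1, the kinase that acts on centrosomes and kinetochores, was more variable, at 5.15, 4.14 and 3.25 with Di, against 5.63, 6.40 and 5.14 in controls. Its Di values reached just above the lowest control value, while its high Kbr values of 9.08, 8.98 and 9.67 all exceeded the 8.12, 8.07 and 8.38 of the Kbr controls. The difference of effects for PLK1 was -2.60 ± 0.50, and PLK1 was no longer opposed without replicate 3 of high Kbr, in a fit of the 12 arrays alone or with array weights.

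Further genes of kinetochore, spindle and chromosomes were opposed, of which SPC25, NDC80, CDCA2, KIF22 and FAM83D stood outside the list and were named for the size of their differences. SPC25 and NDC80 encode subunits of the complex that ties microtubules to kinetochores. SPC25 was at 5.44, 5.24 and 5.39 with Di, against 7.17, 7.39 and 7.17 in controls, and at 10.60, 10.69 and 11.07 with high Kbr, against 8.94, 9.24 and 9.72. That made a fall of 3.70-fold with Di and a rise of 2.81-fold with high Kbr, and the effects differed by -3.37 ± 0.31. NDC80 had effects of -2.03 with Di and 0.70 with high Kbr, with controls that differed by -1.13. CDCA2, which brings a phosphatase to chromatin as mitosis ends, had -1.87 and 1.34 (controls -1.60). KIF22, a motor that binds chromosome arms, had -1.93 and 0.83 (controls -1.01). FAM83D, a spindle protein, had -2.31 and 0.83 (controls -1.75). NUSAP1, which bundles spindle microtubules, had -2.06 and 0.54 (controls -1.28). In all 5 the Di-set controls were lower by the test. The proliferation marker MKI67 had -1.70 and 0.68, from control levels far apart, at 7.66 to 7.89 in the Di set and 10.56 to 10.89 in the Kbr set.

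The one gene of the mitosis list that fell with both was KIF20A, a motor of cytokinesis. It was at 2.96, 4.27 and 3.87 with Di, against 8.14, 8.21 and 8.23 in controls, a fall of at least 18.3-fold. The high Kbr arrays were at 9.27, 9.38 and 10.06, against 10.11, 10.21 and 10.42, a fall of 1.60-fold. As fitted, its difference of effects was the largest negative one in the table, at -3.82 ± 0.28. Its Di arrays averaged under 4, so that size and its rank are not exact. KIF20A went down under either compound, only to a very unequal extent. The fall with high Kbr did not pass in a fit of the 12 arrays alone.

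Genes of DNA replication and the G1/S step fell with Di but were mixed with high Kbr. Of 39 measured, 33 fell (84.6%, against 23.9% of all genes) and 1 rose with Di, and 34 had a lower effect with Di (87.2%, against 19.9%). With high Kbr 10 rose (25.6%) and 8 fell (20.5%), against 27.3% and 34.5% of all genes. The median effects were -1.05 with Di and 0.09 with high Kbr. In 7 genes Di lowered and high Kbr raised the level (2.91% of all genes), and in 8 both effects were negative (15.2%). The Di-set controls were lower than the Kbr-set controls for 36 of the 39.

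CCNE2, cyclin E2, which starts S phase, was the most opposed of these, at 4.37, 5.27 and 5.11 with Di, against 7.89, 8.01 and 7.79 in controls. With high Kbr it was at 9.66, 9.51 and 9.34, against 8.50, 8.81 and 8.75. It fell 7.89-fold with Di and rose 1.76-fold with high Kbr, a difference of -3.79 ± 0.22 (adjusted p = 3.02e-13). RRM2, the small subunit of ribonucleotide reductase, fell 9.34-fold with Di, at 8.11, 8.07 and 8.21 against 11.21, 11.58 and 11.27 in controls. Its high Kbr values of 13.22, 13.24 and 13.35 came close to their controls at 13.09, 13.17 and 13.24, an effect of 0.10 that did not pass. RRM2 was therefore a gene called with Di alone, and its effects differed by -3.33 ± 0.14.

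MCM7, a subunit of the replicative helicase, fell with both, 8.45-fold with Di and 1.47-fold with high Kbr. It was at 6.48, 6.15 and 6.57 with Di, against 9.42, 9.57 and 9.46, and at 10.31, 10.08 and 10.55 with high Kbr, against 10.93, 10.51 and 11.15. The high Kbr arrays overlapped their controls, and the shared call was lost without replicate 3 of the Kbr controls. Other genes of the origin were called with high Kbr alone. CDC6, which loads the helicase, had effects of -0.16 with Di, not past the test, and 2.88 with high Kbr. MCM10, a factor of origin firing, was below background in both groups of the Di set and rose 6.38-fold with high Kbr, at 9.44, 9.62 and 9.33 against 6.30, 6.64 and 7.42. RFC3, of the clamp loader, was opposed, with effects of -0.71 and 1.69 (controls -0.84). ORC1, of the origin recognition complex, averaged 3.85 with Di, under the background level, against 4.65 in controls, and 8.76 with high Kbr, against 7.08. Its fall with Di was at least 1.56-fold and its rise with high Kbr 3.20-fold. The opposed call was lost without replicate 2 of Di or replicate 2 of its control, in a fit of the 12 arrays alone, and with values under 4 raised to 4.

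The MCM7 promoter is shown for the element of this group, TTTNNCGC on either strand, which fits the binding sequence of E2F. It lies at chr7:100101348-100101647 on the minus strand of GRCh38.p14 and is written 5' to 3' along the gene, with its 2 matches in capitals.
MCM7: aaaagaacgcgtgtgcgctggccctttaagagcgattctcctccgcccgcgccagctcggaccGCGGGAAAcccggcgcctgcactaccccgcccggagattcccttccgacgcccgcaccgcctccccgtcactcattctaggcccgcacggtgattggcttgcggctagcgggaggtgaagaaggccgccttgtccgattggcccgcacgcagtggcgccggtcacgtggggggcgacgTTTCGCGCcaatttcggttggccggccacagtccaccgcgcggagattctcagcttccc

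This element was found in 58.3% of the 36 promoters of the replication list, in 10.3% of the 29 of the mitosis list and in 10.8% of measured genes. A CHR was found in 5.56% of the replication promoters. Matches of the E2F element overlapped a CCAAT match in 8 promoters.

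Outside the cell cycle, the strongest gene of this kind was NEFH, the heavy chain of neurofilaments. It was at 7.98, 8.07 and 7.76 with Di, against 8.99, 9.10 and 8.96, and at 11.62, 11.47 and 11.49 with high Kbr, against 9.25, 9.22 and 9.38. Its controls did not differ between the sets by the test (adjusted p = 0.116), and its effects were -1.08 and 2.24, a difference of -3.32 ± 0.20. WDR76 was named for the size of its difference. It was in neither the mitosis nor the replication list, which does not place it outside the cell cycle. It fell to 3.98, 3.91 and 3.87 with Di, against 6.48, 6.52 and 6.18. With high Kbr it was at 8.20, 7.75 and 7.33, against 7.21, 7.05 and 6.93. The fall was at least 5.26-fold, the rise 1.62-fold, and the opposed call was lost without replicate 1 of high Kbr or replicate 3 of its control.

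Ribosome biogenesis moved with high Kbr and hardly with Di. Of 18 measured genes 17 rose with high Kbr (94.4%, against 27.3% of all genes), and 16 had a lower effect with Di (88.9%, against 19.9%). With Di 2 rose and 2 fell (11.1% each, against 19.1% and 23.9%). NCL, the nucleolar protein nucleolin, was opposed, at 12.15, 12.09 and 12.05 with Di, against 12.22, 12.48 and 12.32, and at 13.49, 13.50 and 13.50 with high Kbr, against 12.63, 12.54 and 12.66. The fall with Di was small, 1.18-fold, and did not hold without replicate 3 of Di, without replicate 2 of its control, with arrays centred on their medians, or in a fit of the 12 arrays alone. WDR43 had effects of 0.05 and 1.41, and NIP7 -0.09 and 1.17. Proteasome subunits rose in both sets, 14 of 26 with Di (53.8%, against 19.1% of all genes) and 25 of 26 with high Kbr (96.2%, against 27.3%), and 11 had the lower effect with Di (42.3%, against 19.9%). PSMD12, of the regulatory lid, rose by 0.51 with Di and 1.97 with high Kbr, although its rise with both was not called with its probe sets averaged. PSMC4, an ATPase of the base, rose by 1.40 with high Kbr and had an effect of 0.28 with Di that did not pass.

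The genes up with Di and down with high Kbr were more varied. SCEL, sciellin, a protein of the cornified envelope of stratified epithelia, had the largest difference of effects in the table. It was at 10.32, 10.54 and 10.55 with Di, against 9.14, 9.25 and 9.31, and at 3.80, 4.29 and 3.71 with high Kbr, against 9.51, 9.92 and 9.20. Its controls were alike (adjusted p = 0.416), so the gene rose 2.35-fold with Di and fell at least 46.7-fold with high Kbr. The fitted difference was 6.84 ± 0.43 with an adjusted p of 1.47e-12.

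SLCO5A1, of the organic anion transporter family, moved strongly both ways from controls that did not differ by the test. It stood at 9.73, 10.27 and 10.22 with Di, against 6.73, 7.54 and 7.18, a rise of 7.60-fold. With high Kbr it stood at 3.99, 4.22 and 4.31, against 6.80, 6.46 and 7.33, a fall of 6.44-fold. RUNX2, a transcription factor of bone formation, rose 5.56-fold with Di, at 6.94, 7.16 and 6.97 against 4.43, 4.89 and 4.32. It fell at least 4.16-fold with high Kbr, at 3.63, 3.02 and 3.31 against 6.42, 5.05 and 6.69, where 1 control array was well below the others.

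Several more followed. ERFE, erythroferrone, a hormone of iron balance, had effects of 1.31 with Di and -2.96 with high Kbr. TLCD2, a membrane protein, had 1.11 and -2.89, from controls higher by 1.24 in the Di set. KIF26B, a kinesin, had 1.21 with Di and fell at least 4.88-fold with high Kbr. SLC67A1 had 0.68 and -3.26, and of the 12 fits that each left out 1 array it was opposed in 7. It lost the call without replicate 1 or 2 of Di or without any one of the 3 Di controls, and with no filter on low values. NPAS2, a clock transcription factor, had 1.20 and -1.27. PDK1, which holds back pyruvate oxidation, had 0.78 and -1.41, from controls lower by the test in the Di set (-0.44). PSMB9, a subunit of the immunoproteasome, had 0.80 and -1.99 and was at 8.38 to 8.54 with Di, against 7.66 to 7.68, and at 5.15 to 5.76 with high Kbr, against 7.43 to 7.56. ZMAT3, a p53 target, had 1.15 and -0.65. The controls of ERFE, KIF26B, SLC67A1, NPAS2 and ZMAT3 did not differ by the test, with control differences of 0.08, 0.33, -0.52, 0.50 and -0.15.

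**Figure D3:**
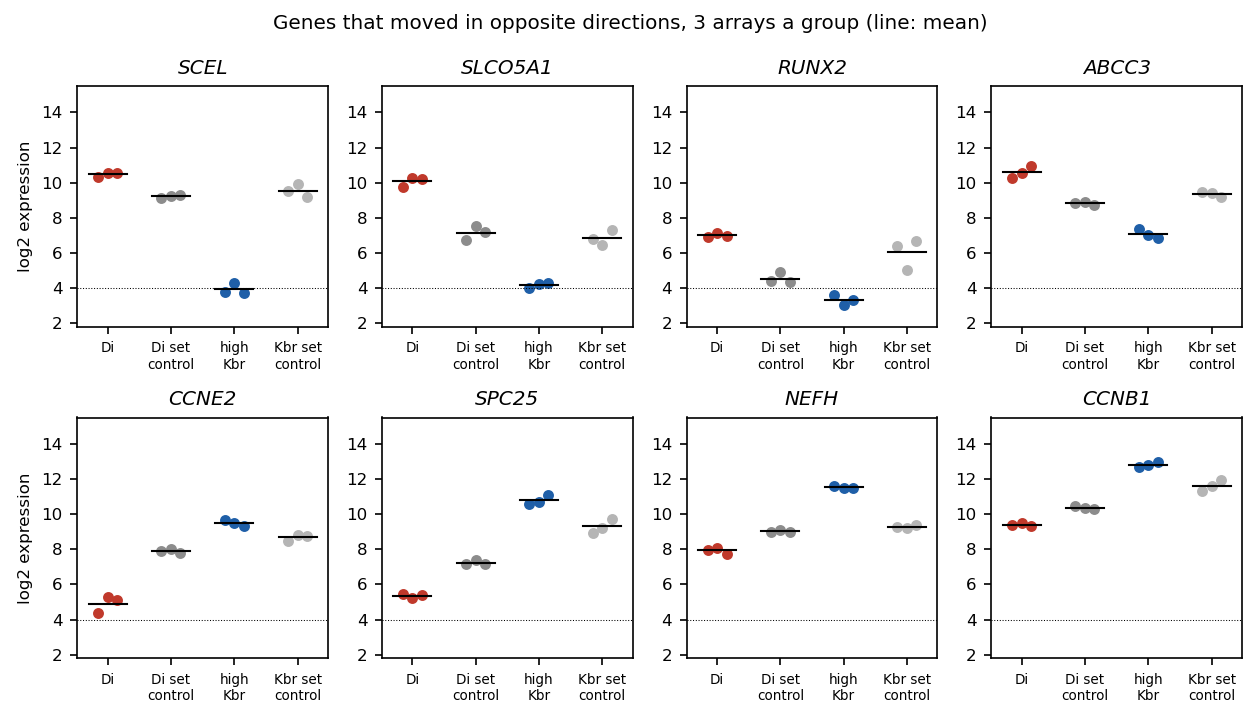
Log2 expression of 8 opposed genes on each of the 12 arrays (points, with the group mean as a line) in the Di, Di-set control, high Kbr and Kbr-set control groups, with a dotted line at the background level of 4. The upper row rose with Di and fell with high Kbr, down to or near background for SCEL, SLCO5A1 and RUNX2, and the lower row fell with Di and rose with high Kbr.

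Growth factor and matrix genes were part of this group. Of 23 measured genes of the matrix and TGF-beta list, 14 fell with high Kbr (60.9%, against 34.5% of all genes) and 1 rose, and 12 had the higher effect with Di (52.2%, against 23.6%) and 2 the lower. With Di itself 7 rose (30.4%) and 6 fell (26.1%), against 19.1% and 23.9% of all genes. TGFA, a ligand of the EGF receptor, was at 10.02, 9.96 and 9.97 with Di, against 8.74, 8.58 and 8.84, and at 8.36, 8.25 and 8.67 with high Kbr, against 9.32, 9.14 and 9.35. The growth medium contained EGF in all groups, per the labels. TGFB2, a ligand of the TGF-beta receptors, had effects of 1.07 and -0.88 (controls 0.45). LAMC1, a laminin chain of basement membranes, had 0.45 and -1.11 (controls -0.88). LOXL2, which cross-links collagen, had 0.37 and -1.94 (controls -1.23), and its rise with Di did not hold without replicate 1 or 3 of Di or replicate 1 of its control. FN1, fibronectin, moved least, by 0.25 and -0.36, from controls that did not differ by the test. TGFA, TGFB2, LOXL2 and FN1 were no longer opposed when the probe sets of a gene were averaged. COL1A1, the main chain of type I collagen, fell 5.99-fold with high Kbr and had a Di effect of -0.21 that did not pass. TNC, tenascin C, fell with both, by 0.43 with Di and 2.31 with high Kbr.

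Several of the widest gaps came from a gene moved by 1 compound only. DKK1, a secreted antagonist of Wnt, was at 7.48, 7.68 and 7.15 with Di, against 2.54, 2.51 and 2.80 in its controls, a rise of at least 10.8-fold. On the Kbr arrays it stayed between 2.43 and 2.54, below background in both groups. SNAI2, a repressor of epithelial genes, gave the same picture, at 7.42, 7.80 and 7.30 with Di, against 2.60, 2.50 and 2.61, and at most 2.79 on all 6 arrays of the Kbr set. EFEMP1, the matrix protein fibulin-3, did the converse, and its Di arrays at 9.03, 9.20 and 9.12 overlapped their controls at 9.11, 9.10 and 9.01. With high Kbr it was at 2.60, 2.56 and 3.61, against 7.91, 8.11 and 7.83, a fall of at least 15.4-fold.

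TNFAIP6, a secreted hyaluronan-binding protein, rose at least 4.11-fold with high Kbr alone, at 5.64, 5.97 and 6.51 against 2.63, 2.78 and 2.79, and was below background throughout the Di set. FRMD4B fell at least 17.9-fold with Di and 1.93-fold with high Kbr. LMNB1, lamin B1 of the nuclear lamina, fell 9.37-fold with Di and had a high Kbr effect of 0.16 that did not pass. SMTNL2 fell 8.92-fold with Di, with a high Kbr effect of 0.40 that did not pass.

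Among the genes moved alike were most NRF2 targets. Of 28 measured, 27 rose with Di (19.1% of all genes rose) and 23 rose and 2 fell with high Kbr (27.3% and 34.5% of all genes). The 23 up with both compare with 9.61% of all genes. The list was nevertheless raised further by Di, with median effects of 1.99 and 1.18 and with 21 genes higher (75%, against 23.6% of all genes) and 1 lower in the difference. Its median level was 12.32, 12.43 and 12.46 with Di, against 9.89, 9.72 and 9.87, and 11.38, 11.05 and 10.57 with high Kbr, against 9.45, 9.29 and 9.34. The controls differed by the test in both directions. In the Di set 5 genes were higher (17.9%, against 24.3% of all genes) and 10 lower (35.7%, against 26.7%). The median control difference was -0.11 over the genes, while the list medians of the Di-set control arrays lay above those of the Kbr-set controls.

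HMOX1, heme oxygenase 1, was at 13.64, 13.87 and 13.61 with Di, against 8.10, 8.21 and 8.21, a rise of 46.4-fold. With high Kbr it was at 11.26, 11.06 and 11.72, against 7.22, 7.36 and 7.98, a rise of 14.2-fold. The groups were far apart in both sets, and the Di effect exceeded the high Kbr effect by 1.71 ± 0.27 (adjusted p = 1.01e-05). NQO1, a quinone reductase, rose by 3.63 with Di and 2.76 with high Kbr, and the interval of the difference ran from 0.51 to 1.24.

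GCLM, the regulatory subunit of the enzyme that starts glutathione synthesis, was at 13.24, 13.19 and 12.99 with Di, against 9.46, 9.29 and 9.67. It was at 12.52, 12.43 and 12.47 with high Kbr, against 9.24, 9.08 and 9.77. The rises of 12.7-fold and 8.61-fold differed by 0.56 with an interval from 0.11 to 1.01 (adjusted p = 0.039). That difference did not pass without any one of 7 arrays, which were replicates 1 and 2 of Di, replicates 1 and 2 of its control, replicates 2 and 3 of high Kbr and replicate 3 of its control, with values from 0.36 to 0.56. TXNRD1, thioredoxin reductase, rose 6.71-fold and 4.46-fold, a difference of 0.59 ± 0.15.

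The promoters of GCLM and TXNRD1 are shown for the antioxidant response element, TGACNNNGC on either strand, in capitals. Both run from 250 bases before to 50 after the start in RefSeq on GRCh38.p14, GCLM at chr1:93909381-93909680 on the minus strand and TXNRD1 at chr12:104215529-104215828 on the plus strand.
GCLM: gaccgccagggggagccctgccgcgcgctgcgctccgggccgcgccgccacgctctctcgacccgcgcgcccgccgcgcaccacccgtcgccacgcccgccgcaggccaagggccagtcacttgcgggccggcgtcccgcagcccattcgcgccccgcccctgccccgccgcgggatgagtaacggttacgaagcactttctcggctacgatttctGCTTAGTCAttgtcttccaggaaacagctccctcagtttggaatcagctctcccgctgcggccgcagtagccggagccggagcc
TXNRD1: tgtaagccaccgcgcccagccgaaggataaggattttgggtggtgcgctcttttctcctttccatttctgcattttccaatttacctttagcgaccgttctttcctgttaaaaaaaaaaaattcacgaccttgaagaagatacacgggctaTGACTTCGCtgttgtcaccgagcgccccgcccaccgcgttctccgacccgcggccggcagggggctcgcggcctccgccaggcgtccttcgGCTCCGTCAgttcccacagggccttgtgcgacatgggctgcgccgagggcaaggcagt

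GCLM holds 1 match and TXNRD1 holds 2. The element was found in 28.6% of the 21 promoters of the NRF2 list, in 17.6% of those of genes up with both, and in 15.4% of measured genes. Many known elements of this kind lie farther from the start than this window reaches. Matches of the element overlapped a CCAAT match in 16 promoters and an E2F match in 3.

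Some members of the list responded more to Di. SRXN1, which repairs oxidised peroxiredoxins, was at 11.77, 11.60 and 11.53 with Di, against 7.53, 7.41 and 7.76, and at 9.36, 9.21 and 9.43 with high Kbr, against 7.67, 7.64 and 7.60. The rises of 16.8-fold and 3.24-fold differed by 2.37 ± 0.22. AKR1C1, AKR1C2 and AKR1C3, reductases of ketones and steroids, had Di effects of 4.73, 4.31 and 3.48 and high Kbr effects of 2.21, 1.19 and 0.88. These genes are near copies of each other, so their probe sets may read one another. ABCC3, a pump that exports conjugates, was the one opposed member. It was at 10.27, 10.55 and 10.94 with Di, against 8.84, 8.91 and 8.72, and at 7.36, 7.02 and 6.86 with high Kbr, against 9.45, 9.43 and 9.18. Its effects of 1.76 and -2.27 differed by 4.03 ± 0.25. SLC3A2, the heavy chain of the cystine and amino acid exchangers, was the member with the lower effect under Di, at 1.26 against 2.62, from a control level higher by 2.05 in the Di set. That difference did not pass without replicate 1 of high Kbr or replicate 2 of its control.

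SLC7A11, the cystine transporter that pairs with SLC3A2, rose by 2.02 with Di and 2.79 with high Kbr, and the difference of -0.77 did not pass (interval from -2.01 to 0.47). Its controls were at 10.37 to 10.78 in the Di set and 7.56 to 8.81 in the Kbr set. Replicate 3 of high Kbr was at 9.31, well under the other two at 11.56 and 11.72, and without it the difference was -1.54 and passed.

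**Figure D4:**
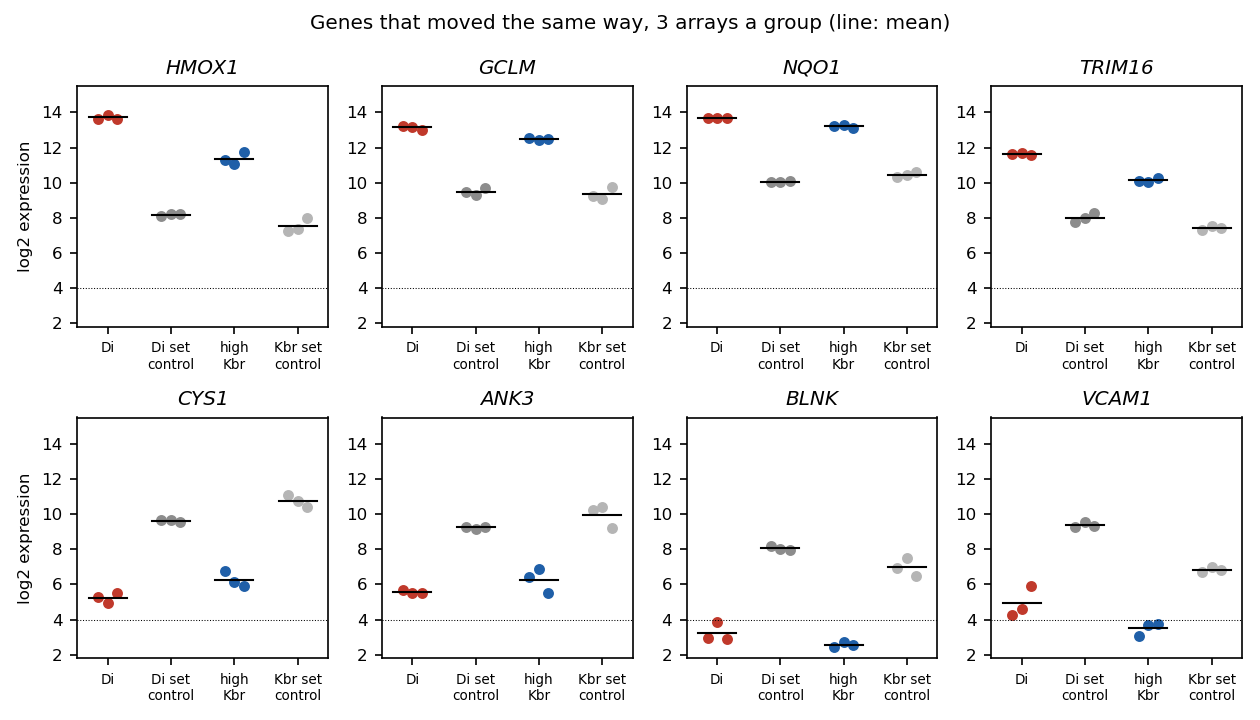
Log2 expression of 8 genes moved alike, on each of the 12 arrays (points, with the group mean as a line), with a dotted line at the background level of 4. The upper row rose with both compounds, HMOX1 by 46.4-fold with Di and 14.2-fold with high Kbr, and the lower row fell with both.

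Other genes rose strongly with both, and for most of those named here the difference did not pass. TRIM16, a ubiquitin ligase family member, rose by 3.63 with Di and 2.72 with high Kbr, a difference of 0.91 that passed (adjusted p = 0.000432). GPAT3, an enzyme of triglyceride synthesis, rose by 3.00 and 2.73, with an interval of the difference from -0.32 to 0.87. POR, the electron donor of cytochrome P450 enzymes, rose by 3.25 and 2.70, with an interval from -0.17 to 1.27, and the difference passed with the replicate number as a block (adjusted p = 0.0437). FOSL1, a subunit of the transcription factor AP-1, rose at least 13.8-fold with Di and at least 10.6-fold with high Kbr. Both of its control groups averaged under 4, so the size of the difference between these rises cannot be read. As fitted, its interval ran from -0.21 to 2.63, and it passed with the block (adjusted p = 0.00334). ATF3, a stress-induced transcription factor, rose by 2.96 and 4.43, from controls far apart. They were at 9.89, 9.96 and 10.10 in the Di set and at 6.71, 5.02 and 4.86 in the Kbr set. ATF3 was at 13.01, 12.93 and 12.91 with Di. Its high Kbr arrays ran from 7.46 to 11.54, so the difference of -1.47 ± 0.98 did not pass, but it was -2.72 and passed without replicate 3 of high Kbr.

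CDKN1A, the cell cycle inhibitor p21, rose with both, at 11.65, 11.80 and 11.71 with Di, against 9.85, 9.88 and 9.92, and at 10.50, 10.53 and 10.56 with high Kbr, against 9.26, 8.70 and 9.11. The rises of 3.57-fold and 2.84-fold differed by 0.33 with an interval from 0.03 to 0.62 and an adjusted p of 0.0656, which became 0.0428 with the block. GDF15, a stress hormone, rose 4.50-fold and 4.24-fold, with an interval from -0.47 to 0.64. Of the p53 list of 25 genes, 11 rose with Di (44%, against 19.1% of all genes) and 2 fell, and 9 rose with both (36%, against 9.61%). With high Kbr 9 rose and 9 fell (36% each, against 27.3% and 34.5%). DDB2, a DNA damage sensor, fell 5.88-fold with high Kbr and had a Di effect of 0.17 that did not pass. TP53INP1 had effects of 0.26 and -2.20, the first not past the test, and BAX, which permeabilises mitochondria, had 0.08 and -1.63, the first likewise.

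Most heat shock genes rose in both sets. Of 16 measured, 13 rose with Di (19.1% of all genes rose) and 14 with high Kbr (27.3%), 12 of them with both (9.61%). The median effects were 0.99 and 0.99. A single gene fell, and it fell with both (6.25%, against 15.2% of all genes). The effect was higher with Di for 1 (6.25%, against 23.6% of all genes) and lower for 3 (18.8%, near the 19.9%). HSPH1, a large chaperone, rose by 1.78 and 2.19. HSPA6, an inducible chaperone, rose at least 3.06-fold with Di alone, at 5.47, 6.24 and 5.13 with Di, against 2.47, 2.44 and 2.47, and under 3 on all 6 arrays of the Kbr set. CHORDC1, a partner of HSP90, rose by 1.31 with Di and 2.75 with high Kbr. DNAJB1, a co-chaperone, rose by 2.00 and 1.27, and the difference of 0.73 did not pass (adjusted p = 0.0537) but did with the block (adjusted p = 0.00491).

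Metallothioneins, the small proteins that bind zinc and other metals, fell with both. Of 8 measured, 7 fell with Di and with high Kbr (15.2% of all genes fell with both), and MT3, near background, did not pass in either. Of the 3 other measured genes of the zinc response list, the zinc importer SLC39A10 fell with both, by 0.55 and 0.78. The zinc exporter SLC30A1 rose by 0.29 with Di, with a high Kbr effect of 0.07 that did not pass. MTF1, the transcription factor of the metallothionein genes, rose by 0.87 with high Kbr, with a Di effect of 0.30 that did not pass. MT1X was at 11.35, 11.20 and 11.15 with Di, against 12.54, 12.50 and 12.66, and at 11.20, 11.22 and 11.99 with high Kbr, against 13.28, 12.98 and 13.21. The falls of 2.53-fold and 3.22-fold had a difference of 0.35 with an interval from -0.07 to 0.77. MT2A fell 2.09-fold and 2.57-fold, with an interval from -0.05 to 0.65. Without replicate 3 of high Kbr both differences passed, at 0.61 for MT1X and 0.54 for MT2A. The difference did pass for MT1E and MT1F with all arrays, with the smaller fall under Di in each. Neither passed in a fit of the 12 arrays alone, at 0.43 and 0.67. For MT1E it also did not pass with arrays centred on their medians. The same held without replicate 1 or 2 of high Kbr or replicate 1 of its control. MT1 genes resemble each other closely, so their probe sets are not fully separate.

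Most measured proximal tubule markers fell with both compounds, by unequal amounts in several. Of the 10 measured, 7 fell with Di (70%, against 23.9% of all genes) and 9 with high Kbr (90%, against 34.5%). Of these, 7 fell with both (70%, against 15.2%). PAX8, a transcription factor of the nephron, rose by 0.37 with Di, with a high Kbr effect of 0.23 that did not pass. The difference of effects passed for 6 of the 10 (against 43.5% of all genes). It was higher with Di for 2 (20%, near the 23.6% of all genes) and lower for 4 (40%, against 19.9%). Their median level was 8.46, 8.43 and 8.48 with Di, against 10.39, 10.42 and 10.36, and 8.87, 8.63 and 8.87 with high Kbr, against 11.03, 10.58 and 10.42. CLDN2, the pore-forming claudin of the leaky proximal junction, was at 3.69, 3.11 and 3.37 with Di, against 9.21, 9.21 and 9.04, a fall of at least 35.6-fold. With high Kbr it was at 7.21, 7.53 and 8.25, against 11.00, 10.50 and 10.36, a fall of 7.77-fold, and the difference as fitted was -2.81 ± 0.32. SLC4A4, the basolateral bicarbonate cotransporter, fell 9.33-fold and 4.16-fold. CDH6, a cadherin of the nephron, fell 11.6-fold and 5.90-fold. ENPEP, a brush border peptidase, went the other way in size, with a Di effect of -0.47 that did not pass and a fall of 3.73-fold with high Kbr. Markers of other cell types fell too. Of 3 distal nephron markers measured, 2 fell with both (66.7%, against 15.2% of all genes). The sodium channel subunit SCNN1A fell by 0.71 and 1.82, and the water channel AQP3 fell to under 4 with each compound. The AQP3 controls were at 4.09, 4.56 and 4.62 in the Di set, close to background, and at 6.57, 6.71 and 6.54 in the Kbr set. AQP3 was no longer down with both when values under 4 were raised to 4. Of the 3 fibroblast markers measured, DCN fell by 0.98 and 1.94 and LUM by 0.80 and 1.92, and COL1A1 with high Kbr alone. LUM was no longer down with both without replicate 1 of Di or replicate 2 of its control. The part of these changes in the tubule result was not tested.

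The genes that fell most with both were not all tubule markers. CYS1, the ciliary protein cystin, was at 5.28, 4.94 and 5.52 with Di, against 9.66, 9.68 and 9.56, and at 6.78, 6.12 and 5.93 with high Kbr, against 11.07, 10.77 and 10.39. The falls were 21.0-fold and 22.1-fold, and the interval of their difference ran from -0.63 to 0.78. BLNK, an adaptor first known in B cells, fell at least 16.8-fold with Di and at least 7.89-fold with high Kbr, to under 4 in both. SLC17A3, a urate and anion transporter, fell 19.4-fold with Di and at least 14.0-fold with high Kbr. ANK3, ankyrin-G of the lateral membrane, fell 12.8-fold and 12.9-fold, with a wide interval from -1.41 to 1.44. DEFB1, an antimicrobial peptide of the tubule, fell 12.7-fold and 16.6-fold. TNFSF10, the death ligand TRAIL, fell 17.7-fold and 11.5-fold, and the difference of -0.62 passed with the block (adjusted p = 0.0442). VCAM1, an adhesion molecule, fell 21.9-fold with Di and at least 7.17-fold with high Kbr, from controls at 9.25 to 9.56 in the Di set and 6.70 to 6.99 in the Kbr set. Its high Kbr arrays were all under 4, so the size of the difference between the falls cannot be read. The fitted difference of -1.11 passed (adjusted p = 0.0261). It did not pass without any one of replicates 1 and 2 of Di, replicate 2 of its control, replicates 2 and 3 of high Kbr or replicate 1 of its control. Nor did it pass with no filter on low values (adjusted p = 0.0550) or in a fit of the 12 arrays alone (adjusted p = 0.0898).

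Kidney injury markers did not form one group. HAVCR1, which encodes KIM-1, fell with both, by 1.5 and 1.83, with an interval of the difference from -0.15 to 0.80. LCN2, which encodes NGAL, rose by 2.00 with Di, at 7.68, 7.74 and 7.90 against 6.00, 5.54 and 5.78, and was under 4 on all 6 Kbr-set arrays. TIMP2, a protease inhibitor, fell 2.86-fold with high Kbr and had a Di effect of 0.01. Over the 18 genes of the list 3 rose (16.7%) and 8 fell (44.4%) with Di, against 19.1% and 23.9% of all genes. With high Kbr 2 rose (11.1%) and 11 fell (61.1%), against 27.3% and 34.5%.

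Chaperones of the endoplasmic reticulum appeared as a Kbr response, but their starting levels were far apart. Of 19 measured, 6 rose with Di (31.6%, against 19.1% of all genes) and 15 with high Kbr (78.9%, against 27.3%), and 5 had a lower effect with Di (26.3%, near the 19.9% of all genes). The median level of the list was 13.18, 12.99 and 13.04 with Di, against 12.41, 12.40 and 12.49, and 11.14, 10.57 and 9.55 with high Kbr, against 9.69, 9.29 and 9.84. Replicate 3 of high Kbr stood apart, below 2 of its 3 controls. The Di-set controls were higher than the Kbr-set controls for all 19, by a median of 2.40. SDF2L1 was at 11.79, 11.63 and 11.79 with Di, against 11.23, 11.15 and 11.26, and at 10.91, 10.57 and 8.13 with high Kbr, against 5.92, 5.98 and 5.99. The high Kbr arrays thus stayed below the Di-set controls, although the high Kbr effect was 3.90 and the Di effect, at 0.52, did not pass. HSPA5, the chaperone BiP, had effects of 0.26, not past the test, and 1.81, from controls at 15.28 to 15.42 in the Di set and 12.72 to 13.04 in the Kbr set. DDIT3, the transcription factor CHOP, was at 13.43, 13.41 and 13.63 with Di, against 13.00, 13.11 and 13.06, and at 12.69, 12.61 and 9.41 with high Kbr, against 10.68, 8.86 and 8.64. Its difference of -1.75 had an adjusted p of 0.0872, and it passed with the block (adjusted p = 0.0418), without replicate 3 of high Kbr (-2.83) and without replicate 1 of the Kbr controls (-2.39). DNAJB9, a co-chaperone of BiP, had a difference of -1.59 (adjusted p = 0.0412), and it passed in 2 of the 12 fits that left out 1 array, with the lowest size, -1.14, without replicate 1 of high Kbr.

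Genes of sterol synthesis fell more with high Kbr. Of 22 cholesterol and fatty acid genes, 18 fell with high Kbr (81.8%, against 34.5% of all genes) and 2 rose, and 14 had the higher effect with Di (63.6%, against 23.6%) and 0 the lower. With Di 4 rose (18.2%) and 8 fell (36.4%), against 19.1% and 23.9%. TM7SF2, a sterol reductase, fell 5.74-fold with Di and at least 20.3-fold with high Kbr. LSS, lanosterol synthase, fell 3.20-fold with high Kbr, with a Di effect of -0.22 that did not pass. MSMO1 and SQLE, enzymes on either side of that step, were opposed but small, at 0.54 and -0.37 for MSMO1 and at 0.26 and -0.66 for SQLE. Their control differences were -0.03, not past the test, and -0.69. The rise of SQLE with Di did not hold without replicate 1 or 3 of Di or without any one of its 3 controls, with quantile normalization, with probe sets averaged, or in a fit of the 12 arrays alone.

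Respiratory chain genes fell more often than they rose in both sets. Of 25 respiratory chain and ATP synthase genes, 6 fell with Di (24%, near the 23.9% of all genes) and 13 with high Kbr (52%, against 34.5%). With Di 1 rose (4%, against 19.1% of all genes), and with high Kbr 0 rose (against 27.3%). The effect was higher with Di for 7 of the 25 (28%, near the 23.6% of all genes) and lower for 0 (against 19.9%). The median difference was 0.05. Of 23 lysosome and autophagy genes, 13 rose with Di (56.5%, against 19.1% of all genes) and 2 fell. With high Kbr 8 rose (34.8%) and 6 fell (26.1%), near the 27.3% and 34.5% of all genes. The effect was higher with Di for 9 (39.1%, against 23.6% of all genes) and lower for 1 (4.35%, against 19.9%). CTSL, cathepsin L, rose 4.07-fold and 1.55-fold. CTSB was opposed, at 10.89, 10.83 and 10.84 with Di, against 10.31, 10.37 and 10.37. With high Kbr it was at 10.04, 9.78 and 9.91, against 10.51, 10.13 and 10.35. It stayed opposed in 10 of the 12 fits that left out 1 array. Of 26 glycolysis and hypoxia genes, 10 rose with Di (38.5%, against 19.1% of all genes) and 2 fell. With high Kbr 6 rose (23.1%) and 8 fell (30.8%), near the shares of all genes. The effect was higher with Di for 9 (34.6%, against 23.6% of all genes) and lower for 3 (11.5%, against 19.9%). SLC2A3 was opposed, at 9.56, 9.75 and 9.64 with Di, against 8.76, 9.05 and 8.63. With high Kbr it was at 8.53, 8.63 and 8.43, against 8.89, 8.55 and 9.30. The highest of these high Kbr values, 8.63, lay above the lowest control, 8.55. SLC2A3 stayed opposed in 8 of the 12 fits that left out 1 array. It also lost the call with no filter on low values, with arrays centred on their medians, in a fit of the 12 arrays alone and with array weights. ADM, the peptide adrenomedullin, rose by 2.68 and 4.19, from controls at 7.05 to 7.28 in the Di set and 4.99 to 5.95 in the Kbr set. VEGFA, the endothelial growth factor, rose by 0.77 and 2.24, from controls at 11.44 to 11.87 in the Di set and 9.33 to 10.15 in the Kbr set. Its rise with Di did not hold without replicate 3 of Di or replicate 3 of its control, or in a fit of the 12 arrays alone.

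Signalling genes split gene by gene. Of 24 genes of the EGF receptor, AP-1 and MAPK feedback list, 12 rose with each compound (50%, against 19.1% of all genes with Di and 27.3% with high Kbr). With Di 4 fell (16.7%, against 23.9%) and with high Kbr 6 (25%, against 34.5%). HBEGF, another EGF receptor ligand, rose by 1.37 and 2.73, where TGFA was opposed. DUSP6, a phosphatase induced by ERK, fell by 1.99 and 0.81. Among 19 cytokine and NF-kB genes 4 rose (21.1%, near the 19.1% of all genes) and 6 fell (31.6%, against 23.9%) with Di. With high Kbr 3 rose (15.8%) and 4 fell (21.1%), below the shares of all genes. CSF1, a macrophage growth factor, rose by 1.11 with Di, and its high Kbr effect of -0.30 did not pass. Among 22 interferon-stimulated genes 4 rose (18.2%, near the 19.1% of all genes) and 9 fell (40.9%, against 23.9%) with Di. With high Kbr 1 rose (4.55%) and 11 fell (50%), against 27.3% and 34.5% of all genes. IFI35 fell at least 10.3-fold with high Kbr and had a Di effect of 0.30 that did not pass.

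**Figure D5:**
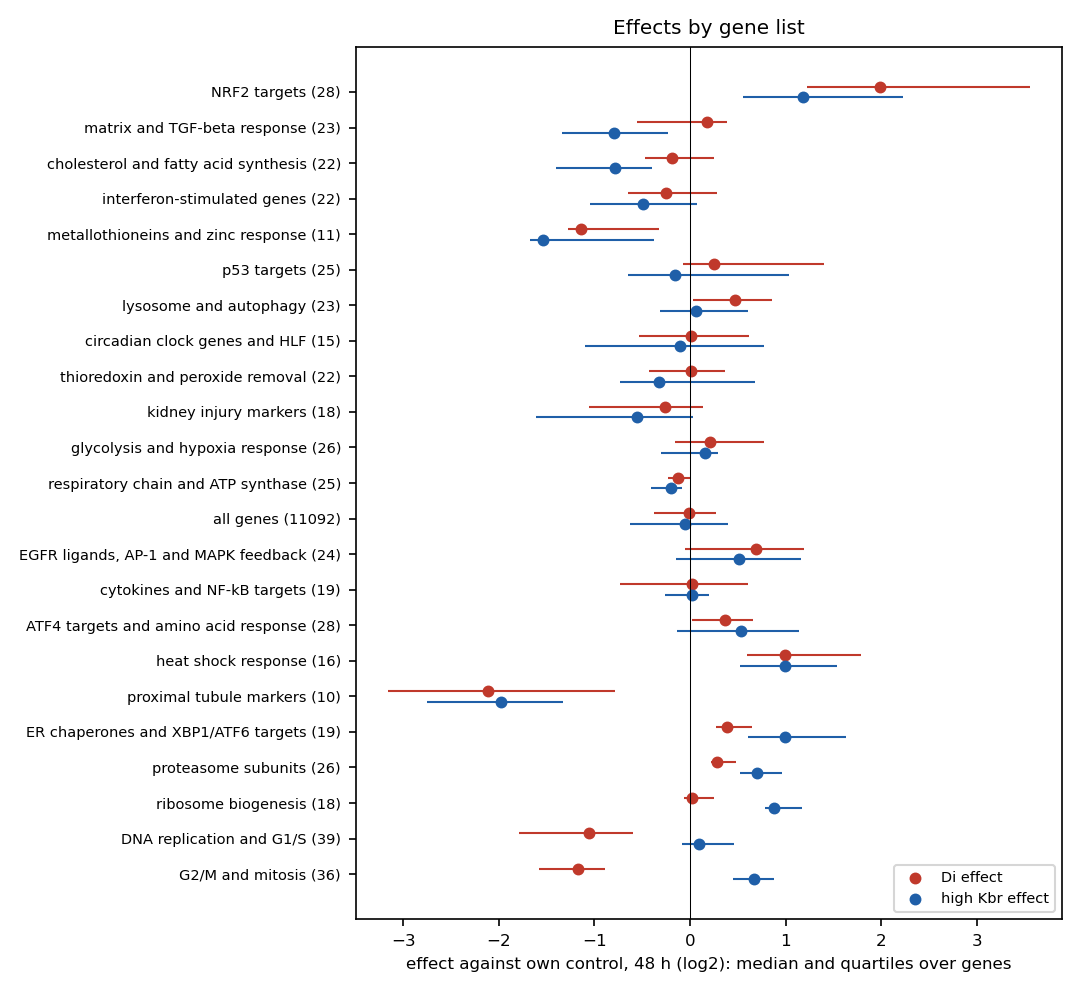
Median (points) and quartiles (lines) of the Di effect and the high Kbr effect over the genes of each list with 10 or more measured genes (number in brackets), log2 against own control at 48 h, ordered by the median difference. The mitosis list lies on opposite sides of 0 (-1.17 and 0.67), the NRF2 list is positive (1.99 and 1.18) and the proximal tubule list negative (-2.11 and -1.98) with both.

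Earlier times and the other treatments of each set are given beside these values, not as further tests, since they share controls with the effects above or were taken at other times. Di had been measured at 12 h, when 695 genes (6.27%) had changed, and high Kbr at 24 h, when 4517 (40.7%) had. Of the 328 genes up with Di and down with Kbr at 48 h, 7 were up and 23 down with Di at 12 h, against 1.67% and 4.6% of all genes. With high Kbr at 24 h, 225 of the 328 were already down (68.6%, against 25.3% of all genes). Of the 323 of the other kind, 3 were up and 26 down with Di at 12 h, against the same 1.67% and 4.6%, and 162 were up with high Kbr at 24 h (50.2%, against 15.4% of all genes). The earlier Kbr arrays have controls of their own, so this is the same dose in other samples.

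SCEL had an effect of -0.04 with Di at 12 h and -3.41 with high Kbr at 24 h. NEFH had -0.26 and 1.63, CCNB1 0.02 and 0.72, and CCNE2 0.04 and 0.26. The high Kbr effects at 24 h passed for SCEL, NEFH and CCNB1, and none of the 4 had passed with Di at 12 h. HMOX1 had risen by 0.84 and TXNRD1 by 0.92 with Di at 12 h, both past the test. Of the NRF2 list, 6 of 28 rose with Di at 12 h (1.67% of all genes rose), and 20 rose and 1 fell with high Kbr at 24 h (15.4% and 25.3% of all genes).

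At 48 h low-dose Kbr changed 5212 genes (47%) and CdCl 4735 (42.7%). The low dose shares its controls with the high dose, and CdCl shares its controls with Di. Of the 36 mitosis genes 33 fell with CdCl (22% of all genes fell), beside 36 with Di, and 30 rose with low Kbr (23.8% of all genes rose), beside 32 with high Kbr. Metallothioneins are given side by side for the same reason, and 7 of the 8 rose with CdCl (20.7% of all genes rose), with an effect of 2.63 for MT1X, beside -1.34 with Di. SCEL had 0.69 with CdCl and -3.96 with low Kbr, and SLC17A3, down with Di and with both doses of Kbr, had 0.12 with CdCl.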

How the data were processed

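Total RNA of HK-2 cells treated near confluency was labelled as biotinylated cRNA and hybridised to Affymetrix arrays of 1 colour, according to the protocols in the labels. The authors deposited log2 expression values for each probe set, computed with GCRMA per the submitters' processing notes. GCRMA corrects background from probe sequence and normalizes between arrays. The sources used here do not give its version. Such values hold a floor of background, which shrinks the changes of weakly expressed genes, and normalization partly removes any change that most genes share. Precision is limited by the number of arrays. The p-values rest on a variance for each gene that is pooled from the spread of replicates within all groups of the series. They do not measure the spread among the 3 replicates of a compared group alone.

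Groups, times and replicate numbers came from the sample descriptions. Of 54675 probe sets, 23599 passed a value above 4 on at least 3 of the 36 arrays. By the platform annotation 41091 probe sets belonged to 1 gene, 1801 to several and 11721 to no gene, and 3155 of those that passed were left out for that reason, as were 62 control probe sets. The probe set with the highest mean stood for each gene, which left 11092 genes, 5474 of them with several probe sets. All 36 arrays entered a fit of 12 group means in limma 3.58.1 (R 4.3.3, lmFit and eBayes) with Benjamini-Hochberg adjustment over all genes. The fit was also run on 20 simulated sets, with independent noise and with changes put into the Di arrays. It called 62.3% of the differences of 1 and 16.7% of those of 0.5, and 5.4% of its calls were false. The simulated noise held no tie between arrays of the same replicate number, which the Kbr set has. Few genes were changed in each simulated set, which gave 144.9 calls on average, against 4830 in the data. Those shares therefore do not give the error rate or the recovery of the real comparison.

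The members, the 24 gene lists and the rule for named genes were chosen with earlier results of these data known. Named genes were the 8 largest opposed and shared genes each way with separate groups and a level of at least 6, the 6 largest differences each way, 25 index genes, and up to 4 members of each list with the largest called difference plus each opposed member. Genes named only to check the cell type came from the marker lists. MT3, SLC39A10, SLC30A1 and PAX8 were named after their values were seen.

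Replicate numbers paired the samples in the Kbr set, where all 45 pairs of arrays with the same number deviated together (correlations from 0.218 to 0.701). In the CdCl and Di set 8 of 45 did so at over 0.1 (from -0.348 to 0.416). A fit with the number as a block was an alternative. Others were the filter, the normalization, averaging over the probe sets of a gene, a variance trend, array weights, the 12 arrays alone, stricter thresholds and each array left out. Promoters came from RefSeq (GRCh38.p14), matched by gene ID, for 9183 of the measured genes.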

Additional observations from a re-analysis of the deposited data

Results flagged for a closer look

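Of the index genes, 2 moved in opposite directions with the compounds, with a tested difference between the effects. CCNB1 fell with Di and rose with high Kbr, and its effects differed by -2.16 (adjusted p = 3.36e-11). CDK1 did likewise, with a difference of -2.03 (adjusted p = 3.50e-08). In both genes the 3 Di arrays lay below their controls and the 3 high Kbr arrays above theirs.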

How the results depend on the processing

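The count of differing effects was 4473 to 4940 with each array left out, against 4830, and 4355 to 5711 in the other settings tried. Opposed genes numbered 554 to 633 with 1 array left out, of which 274 to 330 rose and 265 to 323 fell with Di. They fell to 382 (173 and 209) at an adjusted p of 0.01 and to 37 (23 and 14) where both effects had to reach 2-fold. Shared genes then numbered 673 (155 up and 518 down), and the opposed mitosis genes fell to 1 and the replication genes to 0, since a stricter threshold admits fewer. With 1 array left out these lists held 27 to 32 and 5 to 9 genes. Of the 651 opposed genes, 343 remained so without each array in turn and 365 in every one of 8 other planned settings, the filter above 6 and the stricter thresholds not among them. With the replicate number as a block 860 genes were opposed (the 651 and others) and 3267 shared. With the block in the Kbr set alone, chosen after seeing the data, there were 882 and 3310. The block brought the difference past the test for CDKN1A, DDIT3, DNAJB1, ENPP3, FOSL1, POR and TNFSF10 and changed no other call among the 181 named genes. Of these, 140 kept direction and side of the threshold in each of 23 settings. The differences that changed sign were among those not past the test. With array weights ANK3 went to -0.48, GDF15 to -0.11 and CYS1 to -0.015. With 1 array left out ANK3 ran from -0.37 to 0.38, GDF15 from -0.19 to 0.29, CYS1 from -0.099 to 0.33 and SLC17A3 from -0.31 to 0.027. With probe sets averaged for each gene HMGCS1 went to -0.022 and ENPP3 to -0.081, and with values under 4 raised to 4, chosen after seeing the data, IL6 went to 0.16. The causes were not tested. Signal over background limits genes below 4, where folds are bounds.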
